A study of Mus musculus with 6 samples.

Results

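The data describe 9 transcription factors that pattern the intestine along its length and keep its cells intestinal: Gata4, Gata5, Gata6, Pdx1, Cdx1, Cdx2, Hnf4a, Hnf4g and Onecut2. They were taken by gene symbol out of 32285 genes in the count tables, with no measured value in the rule, and each symbol matched 1 row. Epithelial cells of the small intestine had been captured in droplets as 6 single-cell libraries, 3 from control littermates and 3 from mice labelled IE-HuR-/-, in which each captured RNA carries a unique molecular identifier (UMI). Both groups were C57BL/6 background mice of 6 to 8 weeks with loxP sites in both copies of the HuR gene (HuR fl/fl). The IE-HuR-/- mice also carried villin-Cre, whose promoter drives the recombinase in intestinal epithelium, and the control littermates had no Cre and are called wild-type in the labels. The methods give 24 h without food before collection, whereas the labels give normal feeding. HuR, encoded by Elavl1, is an RNA-binding protein that acts on the stability and translation of messenger RNAs. The methods name the middle of the small intestine for the tissue used in histology and in protein and RNA extraction, and do not state a segment for the single-cell libraries, so a difference in segment and a difference in genotype cannot be told apart in what follows.

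GATA4, GATA5 and GATA6 are zinc finger factors that bind GATA motifs, and GATA4 is known as the factor that keeps the jejunum from taking on ileal gene expression. PDX1, CDX1 and CDX2 are homeobox factors of the ParaHox type. PDX1 marks the duodenum and pancreas, and CDX1 and CDX2 set intestinal against gastric identity. HNF4α and HNF4γ are nuclear receptors that drive enterocyte genes of lipid handling and the brush border, and Onecut2 is a cut-homeobox factor expressed in the proximal gut. The mature lining holds absorptive enterocytes, mucus-secreting goblet cells, hormone-secreting endocrine cells and chemosensory tuft cells, and enterocytes change their genes as they move up the villus to its tip.

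In the mouse build GRCm38 (GENCODE M21 annotation) all 9 members are protein-coding genes. Pdx1 lies on chromosome 5 from 147269959 to 147275848 on the + strand, and Cdx2 is its next annotated coding neighbour, on the same chromosome from 147300805 to 147307270 on the - strand, with 24956 bases between them. Hnf4a lies on chromosome 2 from 163506808 to 163572910 on the + strand, Gata5 on chromosome 2 from 180325133 to 180334699 on the - strand, Gata4 on chromosome 14 from 63198922 to 63271692 on the - strand, and Hnf4g on chromosome 3 from 3508030 to 3658052 on the + strand. The stretches below, from the RefSeq promoter table with build GRCm38.p6, stop short of any annotated exon and run 5′ to 3′ on the strand of the gene. They are shown because Pdx1, Cdx2 and Hnf4a are the members with the largest differences between the libraries' labels in enterocytes, and because Lct and Fabp6 are regional genes that moved apart beside them. Capitals mark, on either strand, the core letters bound by GATA factors (GATAA), by HNF4 (CAAAG) and by CDX factors (TTTAT), and the last pair of capitals in the upstream Hnf4a stretch begins a GATAA that runs on into the exon.
Pdx1, chr5:147269847-147269958, + strand: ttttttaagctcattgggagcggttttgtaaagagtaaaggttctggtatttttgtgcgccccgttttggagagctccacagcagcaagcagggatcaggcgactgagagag
Cdx2, chr5:147307271-147307499, - strand: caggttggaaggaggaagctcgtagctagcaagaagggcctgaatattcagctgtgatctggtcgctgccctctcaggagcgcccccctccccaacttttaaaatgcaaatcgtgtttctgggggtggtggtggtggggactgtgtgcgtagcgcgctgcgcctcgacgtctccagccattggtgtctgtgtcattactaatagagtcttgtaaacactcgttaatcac
Hnf4a, upstream start, chr2:163506607-163506807, + strand: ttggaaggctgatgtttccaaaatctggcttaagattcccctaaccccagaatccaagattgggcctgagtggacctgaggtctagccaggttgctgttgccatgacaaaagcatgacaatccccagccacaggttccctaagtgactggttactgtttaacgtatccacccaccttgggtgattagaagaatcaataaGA
Hnf4a, downstream start, chr2:163546943-163547154, + strand: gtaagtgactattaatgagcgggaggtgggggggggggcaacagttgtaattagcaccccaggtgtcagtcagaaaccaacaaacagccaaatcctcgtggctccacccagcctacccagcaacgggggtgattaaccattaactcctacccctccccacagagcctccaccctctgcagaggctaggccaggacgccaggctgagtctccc
Lct, lactase, chr1:128328319-128328568, - strand: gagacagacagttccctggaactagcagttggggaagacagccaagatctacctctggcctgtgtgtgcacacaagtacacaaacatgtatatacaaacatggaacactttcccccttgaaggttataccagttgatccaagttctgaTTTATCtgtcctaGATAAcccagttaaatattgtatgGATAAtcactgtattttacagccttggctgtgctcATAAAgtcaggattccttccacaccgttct
Fabp6, ileal bile acid binding protein, chr11:43601563-43601812, - strand: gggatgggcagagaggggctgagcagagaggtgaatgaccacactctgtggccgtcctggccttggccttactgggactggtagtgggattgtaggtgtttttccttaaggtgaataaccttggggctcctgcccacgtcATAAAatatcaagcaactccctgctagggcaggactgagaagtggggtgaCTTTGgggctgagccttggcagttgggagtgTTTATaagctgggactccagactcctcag

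The windows of 250 bases before the RefSeq starts of Pdx1 and Cdx2, of which 138 and 21 bases lie inside the annotated gene and are not printed, held none of these motifs, and the window of Lct held 3 GATA and 2 CDX motifs. The stretch of Fabp6 held 1 HNF4 and 2 CDX motifs. Over all 32851 promoters of 250 bases in the table, the GATA letters stood in 22.6%, the HNF4 letters in 48.6% and the CDX letters in 37.3%. Of 5 promoters of the members in the table (Gata5, Pdx1, Cdx2 and the pair of Hnf4a starts), 1 held the GATA letters, 1 the HNF4 letters and 0 the CDX letters. Lct and Fabp6 do not stand for their lists of regional genes, given below. Of 8 promoters of proximal genes 4 held the GATA, 6 the HNF4 and 4 the CDX letters. Of 7 promoters of ileal genes 2 held the GATA, 7 the HNF4 and 3 the CDX letters. A match describes the letters only.

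The 6 libraries held 60706 barcodes, each with at least 500 UMIs, and between 59518012 and 91818560 UMIs per library. Barcodes were assigned to a class by marker genes that include none of the members: 35604 were enterocytes (between 4758 and 10346 per library), 1200 goblet cells (between 155 and 293), 305 endocrine cells (between 31 and 86), 177 tuft cells and 6570 T or NK cells, the last of which should express none of the members and give the background level. Pairs of libraries shared between 22 and 44 barcodes. Elavl1 RNA did not fall under the knockout label. In enterocytes it had 28.0 ± 1.62 CPM (UMIs of the gene per 1000000 UMIs of the class, TMM-scaled, SD, n = 3) in the littermates and 32.2 ± 0.471 CPM (SD, n = 3) in the IE-HuR-/- libraries, a log2 difference of 0.20 (SE 0.05, edgeR adjusted p = 0.00088) that was 0.0057 (adjusted p = 0.924) without TMM scaling. The count tables therefore do not check the labels, and each direction below is that of libraries labelled IE-HuR-/-.

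The first question was in which epithelial cells each factor was present. Every member was detected in enterocytes, goblet cells, endocrine cells and tuft cells, and the class with the highest level differed between members. Levels here are CPM within the class without a scaling factor, pooled over the 6 libraries, and genes are not compared with each other because the counts are not set per length. The level in T or NK barcodes, which free RNA in the droplets or doublets with enterocytes can give, was lower than that in each of the 4 epithelial classes for all 9 members.

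Among the GATA factors, Gata4 was at 53.3 CPM in enterocytes, 39.5 in goblet cells, 36.3 in endocrine cells, 31.8 in tuft cells and 5.80 in T or NK cells. Gata6 was at 132 CPM in enterocytes, 105 in goblet cells, 110.1 in endocrine cells, 101 in tuft cells and 17.6 in T or NK cells. Gata5 was more even, at 32.3 CPM in enterocytes, 34.6 in goblet cells, 23.99 in endocrine cells, 39.2 in tuft cells and 3.17 in T or NK cells. For Gata4 the enterocyte libraries, between 49.7 and 58.0 CPM, lay above all 6 goblet libraries, between 25.5 and 46.4 CPM. The goblet, endocrine and tuft levels of Gata4 overlapped.

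Among the homeobox factors, Pdx1 was scarce, with 1933 UMIs in all enterocytes. It was at 6.36 CPM in enterocytes, 4.86 in goblet cells, 11.1 in endocrine cells, 4.47 in tuft cells and 0.909 in T or NK cells. Cdx1 was at 24.7 CPM in enterocytes, 60.3 in goblet cells, 51.7 in endocrine cells, 186 in tuft cells and 4.48 in T or NK cells. Its tuft libraries, between 124 and 233 CPM, lay above every enterocyte, goblet and endocrine library, and its goblet libraries, between 51.5 and 71.0 CPM, overlapped the endocrine ones, between 46.8 and 61.4 CPM. Cdx2 was at 77.6 CPM in enterocytes, 61.6 in goblet cells, 93.6 in endocrine cells, 61.6 in tuft cells and 11.2 in T or NK cells, and its ranges over libraries overlapped between these 4 epithelial classes. In 92 barcodes gated as cycling progenitors (between 6 and 28 per library), Cdx1 was at 158 CPM, with libraries between 67.9 and 336 CPM that overlapped the tuft ones. Cdx2 was at 161 CPM there, and its libraries, between 131 and 220.5 CPM, lay above all those of the 4 classes, but on 125 UMIs in all.

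Hnf4a was at 309 CPM in enterocytes, 282 in goblet cells, 213 in endocrine cells, 199 in tuft cells and 40.8 in T or NK cells. Its paralogue Hnf4g was at 171 CPM in enterocytes and about level in the other epithelial classes, with 87.9 in goblet cells, 84.3 in endocrine cells and 81.2 in tuft cells, against 23.1 in T or NK cells. All 6 enterocyte libraries of Hnf4g, between 146 and 208 CPM, lay above all 6 goblet libraries, between 54.1 and 118 CPM. Onecut2 was at 250.1 CPM in endocrine cells, 112 in enterocytes, 103 in goblet cells, 78.0 in tuft cells and 20.4 in T or NK cells. Its endocrine libraries, between 147 and 341 CPM, lay above all enterocyte libraries, between 90.8 and 134 CPM.

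**Figure D1:**
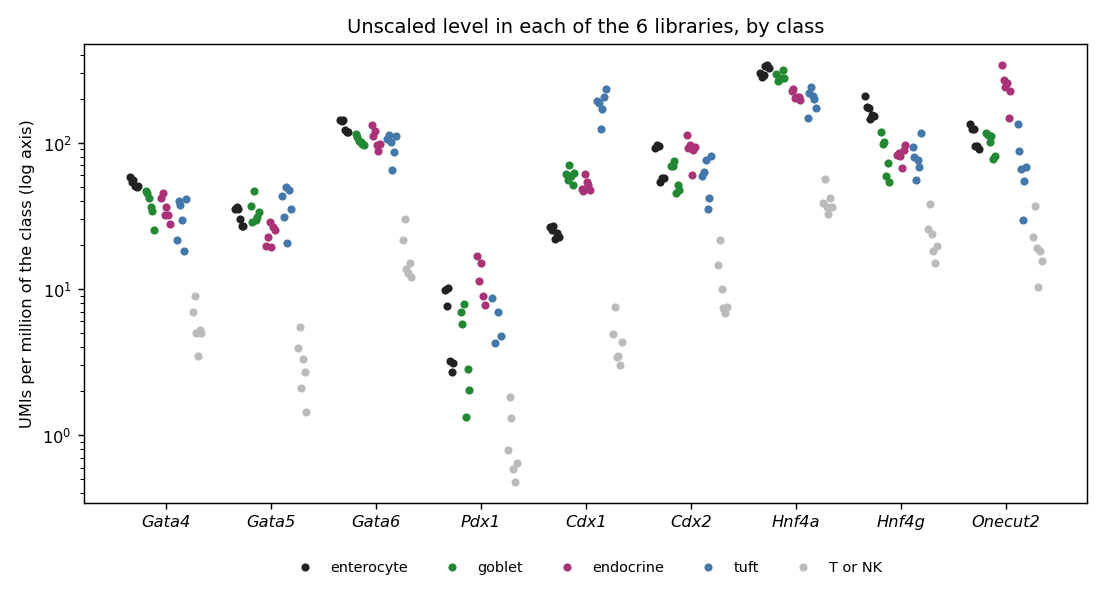
Unscaled level of each factor (CPM within the class, log axis) in each of the 6 libraries, by class; each point is 1 library, and libraries with no UMI are not drawn on the log axis. Among the classes drawn, Cdx1 was highest in tuft cells (186 CPM pooled), Onecut2 in endocrine cells (250.1 CPM), Hnf4g in enterocytes (171 CPM), and T or NK cells had the lowest pooled level of every factor.

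Tests between classes used the same 6 libraries, with the library as a block and TMM scaling. Between goblet cells and enterocytes 5 of 9 members passed the threshold (edgeR's quasi-likelihood test, adjusted p under 0.05), where 51.8% of all genes tested did. Cdx1 was higher in goblet cells by 1.47 on the log2 scale (SE 0.07, adjusted p = 7.4e-11), and Hnf4g was lower, with a log2 difference of -0.85 (SE 0.08, adjusted p = 3.8e-07). Gata4 was lower with -0.30 (adjusted p = 0.0050), Gata5 was higher with 0.28 (adjusted p = 0.012) and Gata6 lower with -0.15 (adjusted p = 0.042). The calls of Gata5 and Gata6 were lost under 4 and 6 alternatives. Pdx1, Cdx2, Hnf4a and Onecut2 did not pass, with log2 differences of -0.29, -0.15, 0.04 and 0.04. Cdx2 was called lower under 7 of 16 alternatives, with -0.33 (adjusted p = 0.00027) without scaling, Pdx1 under 2, with -0.46 (adjusted p = 0.016) without scaling, and Onecut2 was called higher under the stricter gate (0.28, adjusted p = 0.0043). Without scaling 2125 genes were called higher and 4620 lower in goblet cells, in place of 3029 and 3001.

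Between endocrine cells and enterocytes 8 of 9 members passed, where 73.5% of all genes did. Hnf4g was lower in endocrine cells, with a log2 difference of -1.68 (SE 0.10, adjusted p = 6.8e-14), and so were Gata4 with -1.24, Hnf4a with -1.23, Gata5 with -1.09 and Gata6 with -0.95. Onecut2 was higher with 0.46 (SE 0.10, adjusted p = 0.00014) and Cdx1 with 0.39 (adjusted p = 0.0012). These sizes depend on the scaling, since the median of all genes moved by 0.67 when no scaling factor was used and the genes called were 7239 higher and 2416 lower, in place of 4625 and 4680. Relative to that shift the order of the members held, but Cdx2 turned from -0.38 (adjusted p = 0.0015) to 0.29 without scaling, and Pdx1 went from 0.11 (adjusted p = 0.70) to 0.76 (adjusted p = 0.011).

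The next question was how the factors differed between the libraries labelled IE-HuR-/- and the littermates within enterocytes. Pdx1, Cdx2, Onecut2 and Gata5 fell, Hnf4a rose, and Gata4, Gata6, Cdx1 and Hnf4g did not pass the test. Thus 5 of 9 members were called, in a comparison in which 58.8% of 12776 genes were, so that the count of called members is near the background and the sizes carry the description. Levels are TMM-scaled CPM, for which each library is rescaled so that most genes do not differ. Without that factor the median gene was lower by 0.20 on the log2 scale in the IE-HuR-/- libraries and the genes called were 1890 higher and 6305 lower, in place of 3795 higher and 3715 lower. Gata4, Gata6, Cdx1 and Hnf4g were then called lower as well.

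Pdx1, the duodenal factor, had 9.23, 7.09 and 9.46 CPM in littermate replicates 1 to 3 and 3.46, 2.90 and 3.30 CPM in IE-HuR-/- replicates 1 to 3. Every littermate library lay above every IE-HuR-/- library. Mean levels were 8.60 ± 1.31 CPM (SD, n = 3) and 3.22 ± 0.291 CPM (SD, n = 3), a log2 difference of -1.41 (SE 0.11, edgeR adjusted p = 2.7e-08), or a fold of 0.376. In T or NK barcodes, which should lack it, Pdx1 stood at 1.31 ± 0.521 and 0.569 ± 0.0833 CPM without scaling (SD, n = 3 each), on only 19 and 10 UMIs. That background was also lower without overlap in the IE-HuR-/- libraries for Cdx2 (15.4 ± 5.78 and 7.28 ± 0.362 CPM), Onecut2 (26.1 ± 9.49 and 14.7 ± 3.96 CPM) and Hnf4g (29.3 ± 7.75 and 17.6 ± 2.35 CPM). For the remaining members its mean was lower too, with overlapping groups. The share of all genes without overlap in these barcodes was not counted. The part of this background in the differences between labels was not tested.

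Cdx2, the intestinal master factor, had 85.4, 89.7 and 89.7 CPM in the littermate libraries and 58.0, 62.1 and 61.0 CPM in the IE-HuR-/- libraries. With no overlap between groups, the log2 difference was -0.55 (SE 0.04, adjusted p = 1.5e-11), a fold of 0.684. Its paralogue Cdx1 had 24.6, 23.5 and 25.2 CPM against 23.8, 26.0 and 24.03 CPM. Those groups overlapped, and the log2 difference of 0.01 (95% interval -0.09 to 0.11, adjusted p = 0.86) turned to -0.18 (adjusted p = 0.0021) without scaling. Unscaled levels of Cdx1 did not overlap, between 25.2 and 26.9 CPM against between 22.1 and 24.1 CPM.

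Hnf4a, the nuclear receptor of lipid-handling genes, was the only member that rose. It had 279, 264 and 275 CPM in the littermate libraries and 358, 365 and 344 CPM in the IE-HuR-/- libraries. The groups did not overlap, and the log2 difference was 0.38 (SE 0.04, adjusted p = 4.2e-09), a fold of 1.31, which was 0.19 without scaling. Hnf4g had 194, 164 and 163 CPM against 157, 167 and 161 CPM. Littermate replicate 1 stood above the rest, the groups overlapped, and the log2 difference was -0.10 (SE 0.06, adjusted p = 0.18). Hnf4g was called lower under 4 of 19 alternatives, with -0.30 (adjusted p = 0.0024) without scaling, -0.14 (adjusted p = 0.0074) without a filter on low counts, -0.18 (adjusted p = 0.013) without littermate replicate 2 and -0.22 (adjusted p = 0.0039) in cells with villus tip markers. Unscaled levels of Hnf4g did not overlap, between 174 and 208 CPM against between 146 and 155 CPM.

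Onecut2 had 125, 117 and 116 CPM in the littermate libraries and 101, 102 and 96.2 CPM in the IE-HuR-/- libraries. All 3 of the latter were lower, and the log2 difference was -0.25 (SE 0.04, adjusted p = 9.4e-06), a fold of 0.838, which was -0.45 without scaling. Among the GATA factors, Gata5 had 32.8, 34.2 and 32.9 CPM against 32.3, 29.1 and 28.7 CPM. Its groups did not overlap, with a log2 difference of -0.15 (SE 0.05, adjusted p = 0.0096). The Gata5 call was lost without IE-HuR-/- replicate 2 (adjusted p = 0.061) and without IE-HuR-/- replicate 3 (adjusted p = 0.089).

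Gata4 had 54.1, 50.2 and 52.5 CPM in the littermate libraries and 54.0, 53.5 and 53.9 CPM in the IE-HuR-/- libraries. The groups overlapped, with a log2 difference of 0.04 (95% interval -0.04 to 0.13, adjusted p = 0.41) that was -0.15 (adjusted p = 0.0035) without scaling. Gata6 had 134, 131 and 134 CPM against 130, 127 and 126 CPM. Its groups did not overlap, but the log2 difference of -0.06 (95% interval -0.14 to 0.02, adjusted p = 0.20) did not pass, and it was -0.10 (adjusted p = 0.044) without littermate replicate 2 and -0.25 (adjusted p = 1.9e-06) without scaling. Over all gated epithelial cells 6 of 9 members were called, where 51.4% of genes were (3378 higher and 3816 lower, or 1999 and 5736 without scaling). Pdx1 (-1.40), Cdx2 (-0.55), Onecut2 (-0.30), Gata5 (-0.20) and Gata6 (-0.11) were lower and Hnf4a (0.30) was higher. The Gata6 call there was lost without IE-HuR-/- replicate 2 (adjusted p = 0.067) or littermate replicate 2 (adjusted p = 0.070). The p-values of the label comparisons rest on 3 libraries a group and weigh each difference against the spread between libraries as edgeR estimates it.

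**Figure D2:**
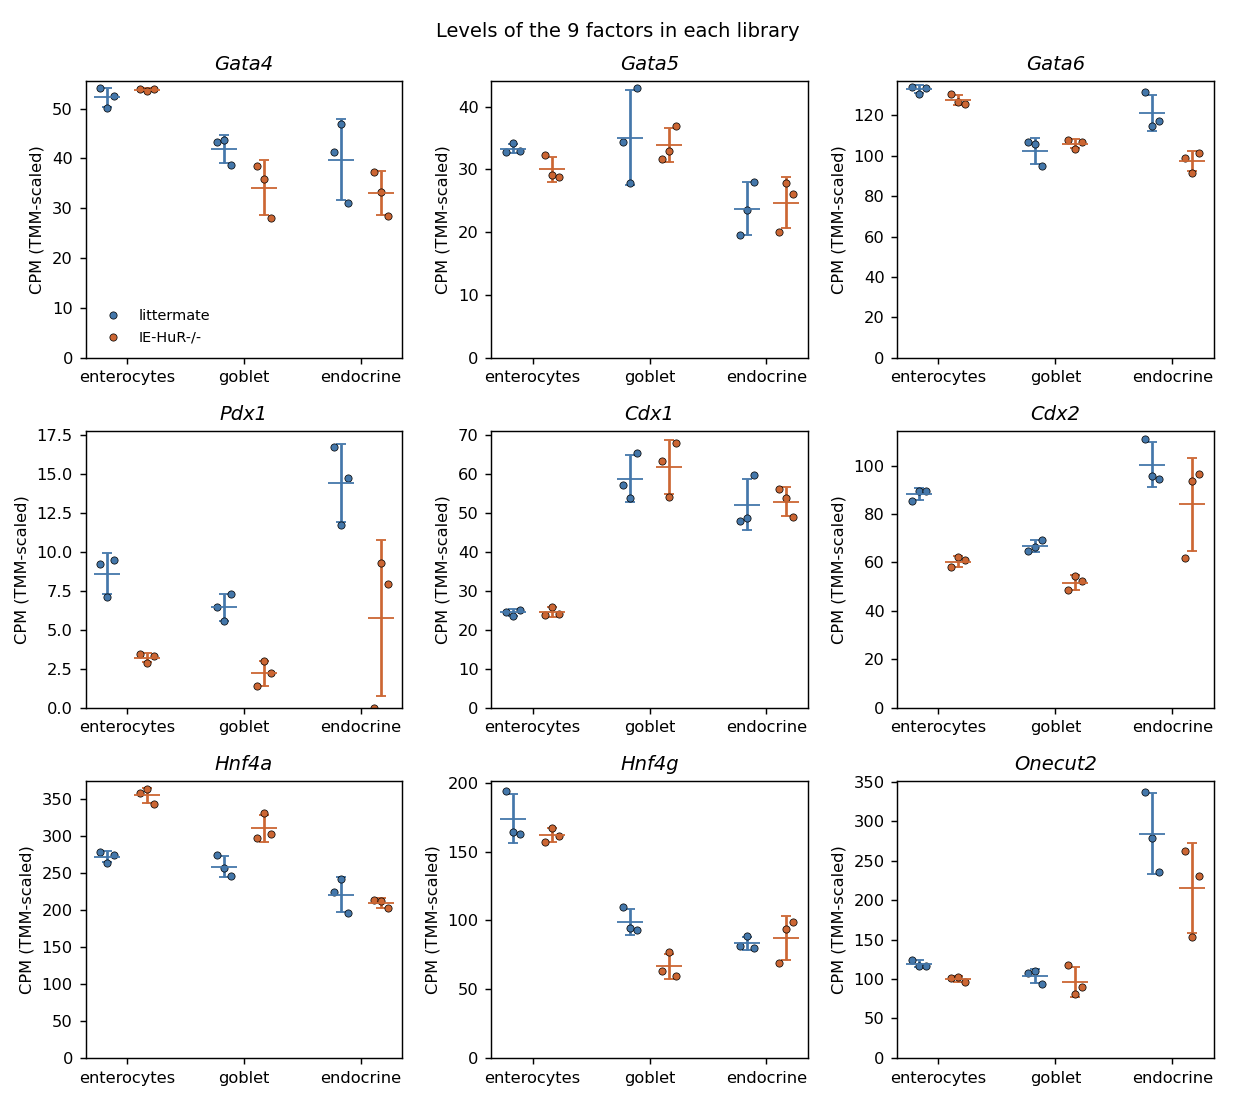
TMM-scaled level (CPM) of each factor in enterocytes, goblet cells and endocrine cells; each point is 1 library, the horizontal line the mean and the bar the SD of 3 libraries, with littermates in blue and IE-HuR-/- libraries in orange. In enterocytes the 3 IE-HuR-/- points lie below the littermates for Pdx1, Cdx2 and Onecut2 and above them for Hnf4a, and Pdx1 is at 0 in 1 IE-HuR-/- endocrine library.

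Enterocyte markers themselves moved with the label. The 10 markers of the gate summed to between 29386 and 30727 CPM in enterocytes of the littermates and between 36364 and 38359 CPM in those of the IE-HuR-/- libraries, and 5 villus tip markers summed to between 3506 and 4178 CPM and between 5010 and 5514 CPM. Of other cells, the 8 T or NK markers summed to between 23.99 and 49.3 CPM and between 41.1 and 45.6 CPM, and the 5 erythroid markers to between 83.0 and 153 CPM and between 39.0 and 80.7 CPM. The 10 endocrine markers summed to between 30.9 and 41.4 CPM and between 47.8 and 52.5 CPM, and the 6 pancreatic acinar markers to between 12.7 and 14.6 CPM and between 8.80 and 9.09 CPM. Yet of 9 enteroendocrine hormones tested in enterocytes, 1 was higher and 5 lower by edgeR, with a median log2 difference of -1.33. Of 4 endocrine transcription factors 0 were higher and 1 lower (3 lower without scaling), where 58.8% of all genes were called. These genes and the endocrine marker sum thus went different ways. The part of enterocyte maturation and of free RNA from other cells in the member differences was not tested here, apart from the separate comparison of tip and other enterocytes below.

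The share of enterocytes with at least 1 UMI was compared after each barcode with at least 2000 UMIs was thinned to 2000. Pdx1 was seen in between 1.74% and 2.62% of them in the littermate libraries and between 0.598% and 0.923% in the IE-HuR-/- libraries, and unthinned in between 3.54% and 6.28% and between 1.95% and 2.29%. Cdx2 was seen in between 17.8% and 18.8% against between 10.8% and 12.4%, and unthinned in between 26.7% and 34.7% against between 22.1% and 24.7%. Both shares were lower in every IE-HuR-/- library. Hnf4a was seen in between 38.7% and 40.3% against between 45.2% and 45.7%, and unthinned in between 42.0% and 51.2% against between 50.6% and 53.8%. The thinned share of Hnf4g differed by the most percentage points of the 9 members, with between 30.3% and 34.6% against between 24.5% and 25.8%, although its unthinned shares overlapped, between 35.5% and 49.0% against between 36.3% and 38.9%. Onecut2 was seen in between 17.5% and 19.2% against between 14.2% and 14.8%, and unthinned in between 26.6% and 31.3% against between 23.4% and 23.9%. In T or NK barcodes, which have a median of between 4075 and 5351 UMIs against between 1249 and 2546 in enterocytes, the unthinned shares were 0.426% for Pdx1, 4.70% for Cdx2, 14.7% for Hnf4a, 8.995% for Hnf4g and 7.69% for Onecut2. Each enterocyte share lay above these.

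The genes next to Pdx1 and Cdx2 were almost silent, since Gsx1 had 0, Urad 33 and Flt3 20 UMIs in all enterocytes, where a count of 0 allows up to 3. Plut, a non-coding gene that overlaps Pdx1 on the other strand, had more UMIs than Pdx1 itself, 2183 in littermate and 1305 in IE-HuR-/- enterocytes. The sources used here do not state whether strand was used in counting, so reads of Pdx1 and Plut may not be told apart. Plut fell less, with a log2 difference of -0.23 (SE 0.06, adjusted p = 0.0030) in enterocytes. Antisense genes also overlap Gata5, Gata6 and Hnf4a. With strand unknown, those 3 members carry the same limit, although their antisense genes had few UMIs beside theirs, with 89 and 60 for Gata5os, 1000 and 444 for 1010001N08Rik and 849 and 784 for Hnf4aos in littermate and IE-HuR-/- enterocytes.

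In goblet cells Pdx1, Hnf4g and Cdx2 fell and Hnf4a rose, so that 4 of 9 members were called where 26.9% of 9043 genes were (1349 higher and 1080 lower, or 737 and 2271 without scaling). Pdx1 had 6.49, 5.58 and 7.29 CPM in the littermate libraries and 1.42, 2.99 and 2.23 CPM in the IE-HuR-/- libraries, from 103 and 21 UMIs. No libraries of the groups overlapped, and the log2 difference was -1.55 (SE 0.33, adjusted p = 0.0011). Hnf4g had 109.8, 94.7 and 92.7 CPM against 63.4, 76.7 and 59.5 CPM, with no overlap and a log2 difference of -0.58 (SE 0.11, adjusted p = 0.00050), a fold of 0.670.

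Cdx2 had 64.5, 66.6 and 69.3 CPM in littermate goblet cells and 48.4, 54.4 and 52.2 CPM in those of the IE-HuR-/- libraries. The groups did not overlap, and the log2 difference was -0.37 (SE 0.11, adjusted p = 0.011). That call was lost under 3 of 17 alternatives, which were without IE-HuR-/- replicate 1 (adjusted p = 0.058), under a stricter gate (-0.22, adjusted p = 0.19) and without the top 5% of barcodes by UMIs (-0.29, adjusted p = 0.064). Hnf4a had 274, 257 and 246 CPM against 297, 332 and 303 CPM, with no overlap and a log2 difference of 0.26 (SE 0.09, adjusted p = 0.043). This call is weak, since it was lost under 10 of 17 alternatives, among them DESeq2 (adjusted p = 0.052) and no scaling (0.07, adjusted p = 0.60), and 5 of the 6 fits without 1 library, with adjusted p between 0.061 without IE-HuR-/- replicate 1 and 0.14 without littermate replicate 3.

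The other goblet members were not called. Gata4 had 43.2, 43.7 and 38.6 CPM against 38.5, 35.8 and 28.0 CPM, with no overlap and a log2 difference of -0.29 (adjusted p = 0.096), and was called without scaling (-0.48, adjusted p = 0.0072) and under a stricter gate (-0.46, adjusted p = 0.022). Gata5 (-0.04), Gata6 (0.05), Cdx1 (0.07) and Onecut2 (-0.10) had overlapping groups. In the same goblet sums the 8 Paneth markers were between 208 and 308 CPM in the littermates and between 500.2 and 542 CPM in the IE-HuR-/- libraries, and the 8 tuft markers between 4.77 and 5.03 CPM and between 14.3 and 16.7 CPM. Their part in the goblet differences was not tested.

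In endocrine cells 0 of 9 members were called by edgeR's quasi-likelihood test, where 1.10% of 8846 genes were (59 higher and 38 lower, or 47 and 46 without scaling), and 0 by DESeq2. At an unadjusted p under 0.05 the test gave 2 members, Pdx1 and Gata6, where 1052 of 8846 genes were under it. Pdx1 had 16.7, 11.7 and 14.8 CPM in the littermate libraries and 0, 9.26 and 7.96 CPM in the IE-HuR-/- libraries. The groups did not overlap, but they rest on 57 and 17 UMIs, and the log2 difference of -1.18 (SE 0.50) had an adjusted p of 0.36.

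Onecut2, highest in this class, had 338, 279 and 235 CPM in littermate endocrine cells and 263, 153 and 231 CPM in those of the IE-HuR-/- libraries. The groups overlapped, and the log2 difference was -0.41 (95% interval -0.78 to -0.03 from the SE, edgeR unadjusted p = 0.052, adjusted p = 0.42). Gata6 had 131, 115 and 117 CPM against 99.1, 91.7 and 101 CPM, without overlap, with a log2 difference of -0.32 (95% interval -0.60 to -0.04, adjusted p = 0.40). Cdx2 had 111, 95.5 and 94.4 CPM against 61.7, 93.6 and 96.7 CPM, where IE-HuR-/- replicate 1 stood low and the log2 difference was -0.24 (95% interval -0.58 to 0.10, adjusted p = 0.64). Gata4 (-0.27), Hnf4a (-0.08), Gata5 (0.08), Hnf4g (0.08) and Cdx1 (0.02) had overlapping groups. The interval of Cdx2 holds the enterocyte difference of -0.55. That of Hnf4a, from -0.34 to 0.19, lies below the enterocyte difference of 0.38, which has an SE of its own. The test of this difference between classes, given below, did not pass (edgeR adjusted p = 0.34).

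**Figure D3:**
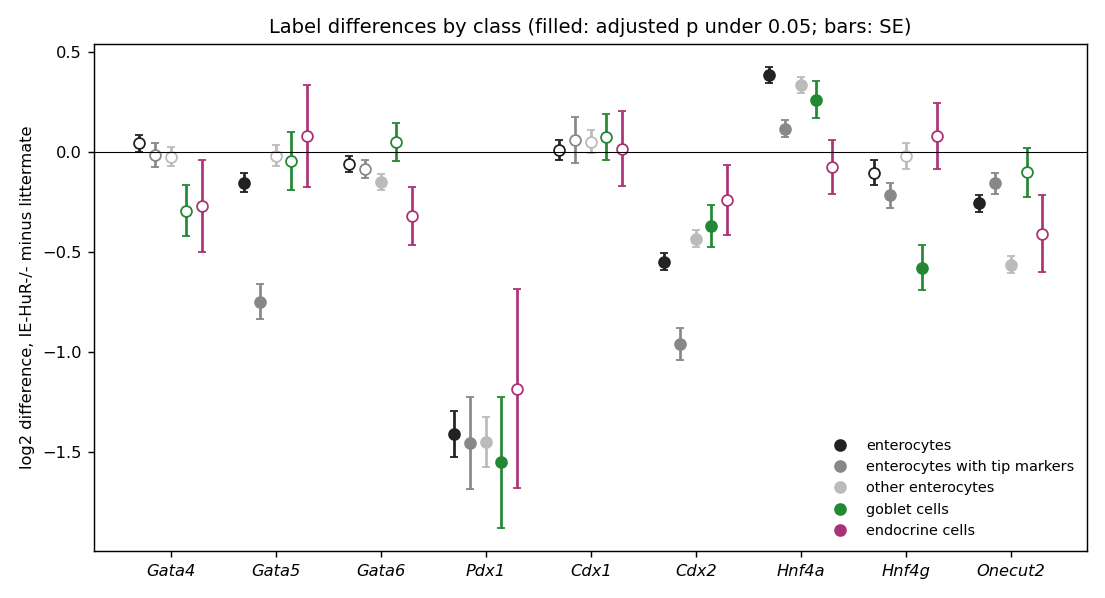
Log2 difference (IE-HuR-/- minus littermate, TMM-scaled) of each factor in enterocytes, enterocytes with tip markers, other enterocytes, goblet cells and endocrine cells; bars are the SE and filled points passed an adjusted p of 0.05. Pdx1 lies between -1.18 and -1.55 in all 5, Cdx2 is below 0 in all 5, and no endocrine point is filled.

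Whether a label difference was itself different between classes was tested with an interaction term over the same libraries. Between goblet cells and enterocytes 1 of 9 members passed, where 4.19% of genes did (339 higher and 181 lower, or 274 and 230 without scaling). This was Hnf4g, whose label difference was more negative in goblet cells by -0.43 (SE 0.11, adjusted p = 0.022), and the call was lost in 4 of 6 fits without 1 library, with adjusted p between 0.082 and 0.12 (without littermate replicate 1 or 2, or IE-HuR-/- replicate 1 or 3). The difference of differences was -0.11 for Pdx1 (95% interval -0.82 to 0.60) and 0.22 for Cdx2 (0.01 to 0.43 from the SE, edgeR unadjusted p = 0.053, adjusted p = 0.31, or 0.39 with adjusted p = 0.030 under a stricter gate). Between endocrine cells and enterocytes 0 of 9 members passed in edgeR, where 1.28% of genes did (116 higher and 63 lower, or 212 and 58 without scaling), and 0 by DESeq2. At an unadjusted p under 0.05 edgeR gave 1 member (Hnf4a, -0.43, adjusted p = 0.34), where 1486 of 13983 genes were under it. There the difference was 0.28 for Pdx1 (95% interval -0.70 to 1.26) and 0.33 for Cdx2 (-0.02 to 0.69), so that neither equal nor unequal label differences were shown between these classes.

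Because tip markers moved with the label, enterocytes were divided, after the data had been seen, into 5838 barcodes with at least 2 of 5 villus tip markers (Ada, Nt5e, Slc28a2, Creb3l3 and Egfr) at 0.5% or more of their UMIs and the rest. Barcodes of the first kind had a median of between 4084.5 and 10787 UMIs per library, so that the gate also picks deep barcodes. They were between 12.7% and 13.4% of enterocytes in the littermate libraries and between 20.1% and 22.2% in the IE-HuR-/- libraries. The part of this share in the label differences over all enterocytes was not tested. All 9 members differed between the kinds, where 76.2% of genes did, and they fell into factors that were higher and factors that were lower in cells with tip markers. Higher were Onecut2 by 1.36 on the log2 scale (SE 0.10), Hnf4a by 1.26 (SE 0.04), Gata6 by 0.69 (SE 0.04), Gata4 by 0.58 (SE 0.04) and Pdx1 by 0.40 (SE 0.13, adjusted p = 0.013). The Pdx1 difference was 0.03 without scaling and was not called without littermate replicate 3 (adjusted p = 0.055).

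Lower in cells with tip markers were Cdx2 with -1.31 (SE 0.08), Hnf4g with -1.30 (SE 0.04), Cdx1 with -0.80 (SE 0.07) and Gata5 with -0.64 (SE 0.12). The paralogues Hnf4a and Hnf4g thus lay on opposite sides, and so did Gata5 against Gata4 and Gata6. Hnf4a was at 544 ± 41.7 CPM (SD, n = 6 libraries) in cells with tip markers and 228 ± 27.6 CPM in the others, and Hnf4g at 72.4 ± 5.48 and 178 ± 12.9 CPM. Without scaling the median of all genes moved by -0.46, and the direction of each of the 9 differences stayed as given. Without scaling 2318 genes were higher and 6932 lower, in place of 4007 and 4578.

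**Figure D4:**
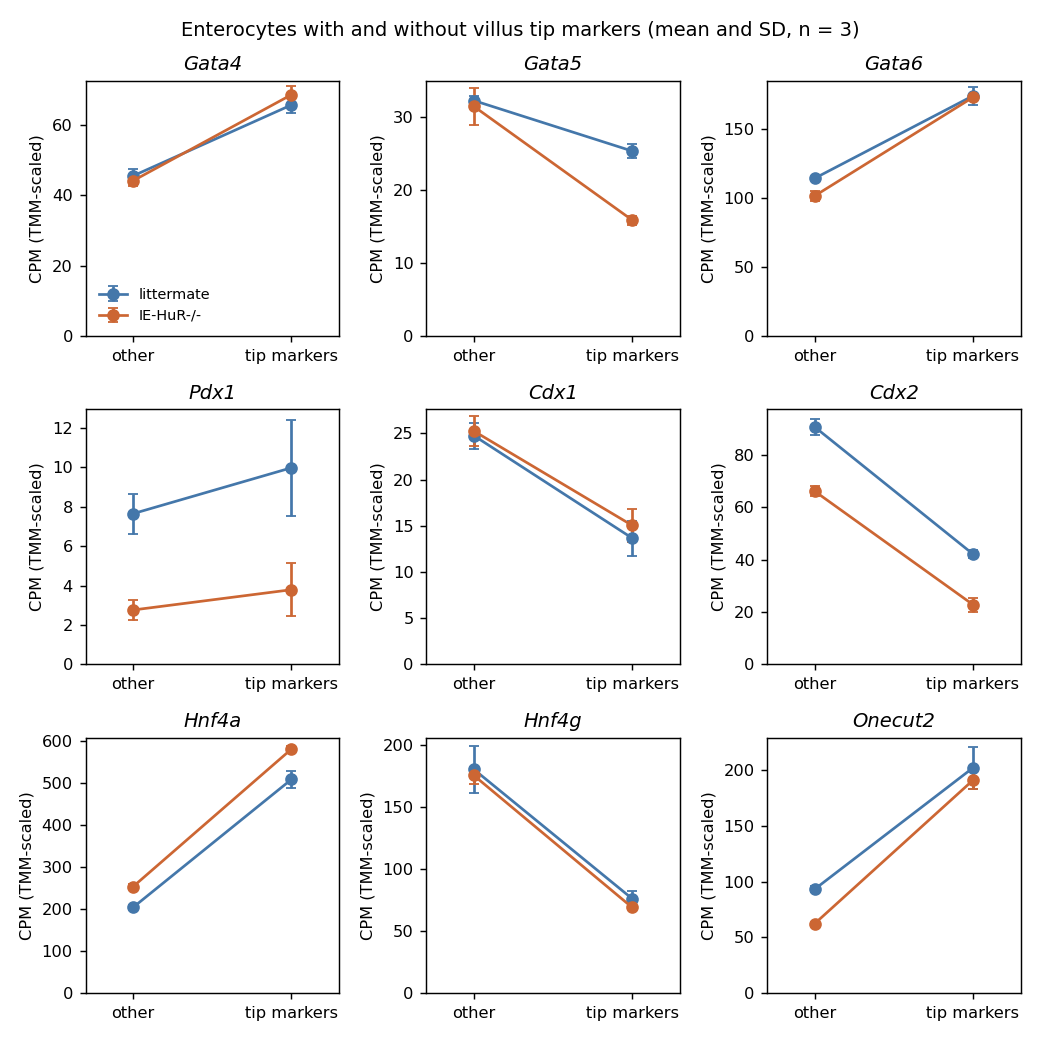
TMM-scaled level (CPM, mean and SD of 3 libraries) of each factor in enterocytes with villus tip markers and in other enterocytes, for littermates (blue) and IE-HuR-/- libraries (orange), scaled in 1 fit over both kinds of cell, so that levels differ from those scaled within a kind. Hnf4a, Onecut2, Gata4 and Gata6 are higher with tip markers, Cdx2, Hnf4g, Cdx1 and Gata5 are lower, and Cdx2 falls to 22.8 CPM in IE-HuR-/- cells with tip markers.

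The label differences were then taken within each kind. Pdx1 was lower in both, with -1.46 (SE 0.23, adjusted p = 0.00012) in cells with tip markers and -1.45 (SE 0.12, adjusted p = 5.1e-09) in the others. Cdx2 had 36.5, 40.0 and 37.4 CPM in littermate cells with tip markers and 17.7, 21.9 and 18.9 CPM in IE-HuR-/- ones, with no overlap and a log2 difference of -0.96 (SE 0.08, adjusted p = 8.0e-12). In other enterocytes Cdx2 had 99.5, 103 and 106 CPM against 73.7, 78.6 and 76.1 CPM, with a log2 difference of -0.43 (SE 0.04, adjusted p = 1.9e-09). Of 9 members 6 were called in cells with tip markers, where 49.6% of genes were, and 5 in the others, where 53.4% were.

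Gata5 differed in cells with tip markers, with 21.8, 23.1 and 23.6 CPM in the littermates and 13.4, 14.1 and 13.3 CPM in the IE-HuR-/- libraries. Again no libraries overlapped, and the log2 difference was -0.75 (SE 0.09, adjusted p = 1.4e-08). In the other enterocytes Gata5 had 36.2, 37.6 and 36.1 CPM against 39.5, 35.1 and 34.2 CPM, with overlap and a log2 difference of -0.02 (95% interval -0.12 to 0.09). Onecut2 went the other way, with 108, 106 and 102 CPM against 72.2, 69.5 and 72.8 CPM in the other enterocytes and a log2 difference of -0.56 (SE 0.04, adjusted p = 7.3e-12). In cells with tip markers Onecut2 had 199.9, 170.2 and 176 CPM against 166, 167 and 156 CPM, with a log2 difference of -0.16 (SE 0.05, adjusted p = 0.017).

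Hnf4a was higher in both kinds with TMM scaling, with 0.33 (SE 0.04, adjusted p = 9.6e-08) in the other enterocytes and 0.12 (SE 0.04, adjusted p = 0.023) in cells with tip markers. In the latter the direction rests on the scaling, since unscaled levels were 483 ± 11.4 CPM (SD, n = 3) in the littermates and 467 ± 6.06 CPM in the IE-HuR-/- libraries. Hnf4g was lower in cells with tip markers (-0.22, adjusted p = 0.0039) and not called in the others (-0.02). Gata6 was lower in the others (-0.15, adjusted p = 0.0030) and not called in cells with tip markers (-0.08). The interaction terms passed for 5 of 9 members, where 17.4% of genes passed (1561 higher and 513 lower, or 707 and 1127 without scaling). They were -0.63 for Gata5 (SE 0.09, adjusted p = 1.7e-05), -0.43 for Cdx2 (SE 0.07, adjusted p = 6.4e-05), 0.51 for Onecut2 (SE 0.06, adjusted p = 1.9e-07), -0.12 for Hnf4a (SE 0.04, adjusted p = 0.039) and 0.16 for Gata6 (SE 0.05, adjusted p = 0.015). Only the terms of Gata5, Cdx2 and Onecut2 were kept under all 11 alternatives, since the Gata6 term was lost under 10 of them and the Hnf4a term without IE-HuR-/- replicate 1 (adjusted p = 0.068) or 2 (adjusted p = 0.18).

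Regional genes were listed as a description of the segment profile of the same enterocytes. Of 10 proximal genes, 8 were lower and 2 higher in the IE-HuR-/- libraries, with a median log2 difference of -0.71, and of 8 ileal genes 7 were higher and 1 lower, with a median of 0.72, against a median of -0.0049 over all genes tested, of which 58.8% were called. Without scaling the proximal counts were 8 lower and 1 higher, and the ileal counts were as given. Among the proximal genes, S100g, a calcium-binding protein of duodenal absorption, had 202 ± 56.1 CPM (SD, n = 3) in the littermates and 6.35 ± 1.36 CPM in the IE-HuR-/- libraries. Its log2 difference was -4.99 (SE 0.33, adjusted p = 0.00027). The calcium channel gene Trpv6 had 68 UMIs in littermate and 1 in IE-HuR-/- enterocytes, a ratio of 0.0184 after division by the class totals (exact 95% interval 0.00046 to 0.106, counting error only). The iron transport genes Cybrd1 (-1.92, adjusted p = 0.025, lost in fits without 1 library with adjusted p up to 0.071) and Slc40a1 (-1.66) and the lactase gene Lct (-0.79), whose promoter is printed above, were lower as well.

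Among the ileal genes, Fabp6 had 676 ± 24.7 CPM (SD, n = 3) in the littermates and 3354 ± 52.5 CPM in the IE-HuR-/- libraries, a log2 difference of 2.31 (SE 0.05, adjusted p = 4.6e-25). The hormone gene Fgf15 (2.08), the bile acid transporter gene Slc10a2 (1.42) and Enpp7 (0.78), a sphingomyelinase, were higher too. Fabp1 (0.36) and Rbp2 (0.23) were the proximal genes that rose (Rbp2 by 0.03, adjusted p = 0.56, without scaling), and Cubn (-0.67) the ileal gene that fell. In goblet cells 4 of 8 proximal genes tested were lower, and of 8 ileal genes 3 were higher and 1 lower, where 26.9% of all genes were called, and without scaling 6 proximal genes were lower and the ileal counts were 2 and 2. In endocrine cells 0 of 8 proximal and 0 of 7 ileal genes tested were called by edgeR, where 1.10% of all genes were, and the median log2 differences were -0.36 and 0.60. Pdx1, the duodenal factor, and the proximal genes thus had lower values in the same libraries, and whether segment or genotype goes with this cannot be told apart.

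**Figure D5:**
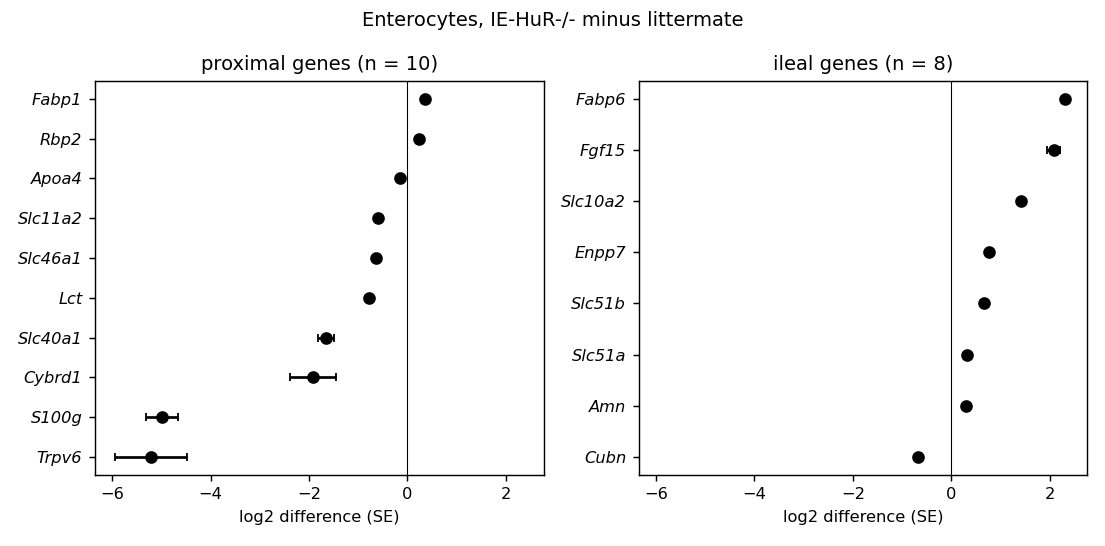
Log2 difference (IE-HuR-/- minus littermate, TMM-scaled; bars are the SE) of 10 proximal and 8 ileal genes in enterocytes, all of which passed an adjusted p of 0.05. Proximal genes run from -5.21 (Trpv6, a fitted value on 68 and 1 UMIs) to 0.36 (Fabp1), and ileal genes from -0.67 (Cubn) to 2.31 (Fabp6).

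Genes listed here as targets of HNF4 and CDX factors were counted next, and their regulation by these factors was not tested. Of 10 HNF4 target genes in enterocytes, 3 were higher and 3 lower, with a median log2 difference of 0.04, where 58.8% of all genes were called. The split rests on scaling, since without it 1 was higher and 7 lower. Mttp, which loads lipid onto lipoproteins, was higher (0.41), and the gluconeogenic genes Pck1 (-1.04) and G6pc (-0.87) and the apolipoprotein gene Apoc3 (-0.43) were lower. Of 7 CDX target genes 4 were higher and 0 lower by edgeR while Cdx2 itself was lower, but 2 were higher and 3 lower without scaling. These were Vil1 (0.54), the brush border villin whose promoter drives Cre in this line, Cdh17 (0.46), Isx (0.20, but 0.0042 with adjusted p = 0.94 without scaling) and Mep1a (0.09, adjusted p = 0.0497, but -0.10 without scaling). The Mep1a call is weak, since it was lost under most other alternatives. Among these were RLE scaling (edgeR adjusted p = 0.065), the stricter gate (adjusted p = 0.25) and no filter on low counts (adjusted p = 0.35). In goblet cells 5 of 10 HNF4 target genes were lower and 3 of 7 CDX target genes higher, where 26.9% of all genes were called. The CDX list includes Muc2, which is also a marker of the goblet gate, so that its level there depends in part on how the cells were chosen. Without scaling 7 HNF4 target genes were lower, and of the CDX target genes 0 were higher and 2 lower by the same edgeR test.

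Genes of the stomach and the colon were scarce. The 9 gastric genes summed to at most 0.164 CPM in enterocytes of any library, and 0 of them passed the filter on low counts. Of 7 colonic genes 3 were tested in enterocytes, where 58.8% of all genes were called, and Aqp8, a water channel, was lower (-2.09). Of 39 Hox genes 3 were tested in enterocytes and 0 were called by edgeR. Of 20 other intestinal transcription factors tested there, 8 were higher and 4 lower, beside the same 58.8% of all genes, or 4 and 10 without scaling. The largest of those called were Prdm1 (1.15), Ppara (-0.66), Klf4 (0.53) and Nr5a2 (-0.52). The GATA cofactor gene Zfpm1 was lower (-0.28), the only 1 called of 2 tested among 7 cofactor and related family genes. In endocrine cells 0 of 9 endocrine transcription factors tested were called, from a list that includes the gate markers Neurod1 and Fev. Of 9 hormones tested 1 was called, where 1.10% of all genes were. This hormone was Gcg, the glucagon and GLP-1 precursor of the distal gut, which was higher with 1.46 (SE 0.23, edgeR adjusted p = 0.014). The Gcg call was lost in fits without 1 library (adjusted p up to 0.10) and under the stricter gate (adjusted p = 0.099). It was also lost without the top 5% of barcodes by UMIs (adjusted p = 0.41) and with at most 25% mitochondrial UMIs (adjusted p = 0.051).

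The genes whose levels ran most like those of members over 36 sums (6 classes in 6 libraries, 10206 genes) were listed by Pearson's r of log2(CPM + 1), as a description, since the sums share libraries and differ in depth. Gata4 ran with Arpin (0.91), Gata5 with Ptgfrn (0.93) and Pdx1 with Otop3 (0.88). Cdx1 ran with Rab25 (0.97), Krtcap3 (0.96) and Cldn3 (0.93), which encode a small GTPase, a keratinocyte-associated protein and a tight junction protein. Cdx2 ran with Ifi30 (0.97), Trim2 (0.96) and Klf5 (0.94), the last a factor of crypt cells. Hnf4a ran with Misp (0.96) and Cd2ap (0.96), Hnf4g with Dennd5b (0.92), Ugt2b34 (0.91) and Nr1h3 (0.91), and Onecut2 with Nuak2 (0.91) and Ptpn3 (0.91).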

How the data were processed

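Single epithelial cells of the small intestine had been sequenced as 6 libraries, 3 labelled littermate and 3 labelled IE-HuR-/-. For each library the authors deposited UMI counts of genes in barcodes as whole numbers, not normalized, and the file headers name Cell Ranger 6.1.2. The submitters' processing notes name Cell Ranger, Seurat and mm10, and the labels a 5′ kit, whereas the study's methods name an earlier version, a human reference and a 3′ kit. The tables list mouse genes. Tissue was released with EDTA and then TrypLE, and the villus-rich and crypt-rich fractions were combined.

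The members, marker lists and gene lists were chosen with earlier results of these data known. A barcode was an enterocyte with at least 5 of 10 markers and 1.0% of UMIs in them (among them Fabp2, Anpep, Krt20, Alpi, Prap1, Dgat1, Slc27a4 and Cdhr5; the others are not reported here), a goblet cell with 4 of 8 and 5.0%, an endocrine cell with 3 of 10 and 0.2%, and a tuft cell with 3 of 8 and 0.2%. Barcodes passing several of the secretory and non-epithelial gates (346) were left out, which also removes some doublets. The enterocyte gate was not counted in this. Doublets of an enterocyte with a goblet, endocrine, tuft or T or NK cell could therefore stay in the class of the other cell. No doublet caller was run. Counts were summed per library and class and compared under R 4.3.3 by the quasi-likelihood test of edgeR 4.0.16 (robust fit, TMM factors, low counts removed by filterByExpr, Benjamini-Hochberg adjusted p under 0.05 over all genes tested), with the library as replicate. The SE of a log2 difference was derived from edgeR's F statistic, as the absolute difference divided by the square root of F. The 95% interval of a difference assumes a normal spread of that SE, so it can be narrower than edgeR's own p implies. Comparisons between classes and their interaction terms had the library as a block. Alternatives were DESeq2 1.42.0, RLE or no scaling, no filter, each library left out, the replicate number as a block, stricter and looser gates, barcodes with at least 2000 UMIs or at most 25% mitochondrial UMIs, the top 5% of barcodes by UMIs left out, counts thinned to the lowest total, and enterocytes with or without tip markers. The fits were tested on simulated data.

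Named genes were all members, Elavl1, in each list up to 4 called genes with the largest difference in enterocytes (hormones and endocrine factors in endocrine cells), and up to 3 genes most like each member. Other genes named (Lct, Fabp1, Rbp2, Cubn, Plut and the neighbours of Pdx1 and Cdx2) were chosen after their values were seen. Intervals of UMI counts cover counting error only, at 95%. Promoters came from the RefSeq table and positions from GENCODE. Reads shared between near-identical genes were not examined. Segment of origin, immune cells and Paneth cells (87 barcodes) were not analysed here.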

Additional observations from a re-analysis of the deposited data

Results flagged for a closer look

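The label difference of Hnf4g differed between goblet cells and enterocytes, with an interaction term of -0.43 (SE 0.11, edgeR adjusted p = 0.022), goblet cells being the more negative. All 3 IE-HuR-/- goblet libraries lay below the 3 littermate ones, whereas the enterocyte groups overlapped with TMM scaling and did not without it. The term was lost in 4 of 6 fits without 1 library, with adjusted p between 0.082 and 0.12 (without littermate replicate 1 or 2, or IE-HuR-/- replicate 1 or 3), and was -0.47 (adjusted p = 0.016) without scaling.

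Between enterocytes with villus tip markers and other enterocytes the label difference was itself different for 5 members. The term was -0.63 for Gata5 (SE 0.09, adjusted p = 1.7e-05) and -0.43 for Cdx2 (SE 0.07, adjusted p = 6.4e-05), with the larger fall in cells with tip markers. It was 0.51 for Onecut2 (SE 0.06, adjusted p = 1.9e-07), whose larger fall lay in the other enterocytes. It was -0.12 for Hnf4a (SE 0.04, adjusted p = 0.039) and 0.16 for Gata6 (SE 0.05, adjusted p = 0.015), and both of these were lost under some alternatives. The 5 tip markers summed higher in IE-HuR-/- enterocytes (between 5010 and 5514 CPM against between 3506 and 4178 CPM), and the part of that shift in these terms was not tested.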

How the results depend on the processing

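Of 1551 values of 94 results under alternatives, 1405 kept their direction and their side of the threshold, 77 lost and 21 gained a call, and 48 turned direction, 3 of them of called values. The falls of Pdx1, Cdx2 and Onecut2 and the rise of Hnf4a in enterocytes kept direction and call under every alternative run, and sizes depend on scaling. The turned values, each IE-HuR-/- minus littermate or class minus enterocyte, were as follows, and the cause was not tested. Without scaling they were in enterocytes -0.15 for Gata4, -0.18 for Cdx1 and -0.10 for Mep1a, in goblet cells -0.14 for Gata6 and -0.12 for Cdx1, in endocrine cells -0.037 for Cdx1, in goblet against enterocyte levels -0.14 for Hnf4a and -0.14 for Onecut2, and in endocrine against enterocyte levels 0.29 for Cdx2. Without a filter on low counts they were -0.025 for Cdx1 in enterocytes, -0.043 for Hnf4a and -0.047 for Onecut2 in goblet against enterocyte levels and -0.030 for Pdx1 in endocrine against enterocyte levels. Under the stricter gate Cdx1 was -0.025 in enterocytes. Under the looser gate Gata5 was 0.0097 and Gata6 -0.012 in goblet cells, Gata5 -0.030 and Cdx1 -0.0070 in endocrine cells, and Onecut2 -0.051 in goblet against enterocyte levels. Thinned, Cdx1 was -0.0040 in enterocytes, Gata5 -0.12 and Cdx1 -0.059 in endocrine cells, and the endocrine interaction of Pdx1 -0.082. Without the top 5% of barcodes Onecut2 was 0.011 in goblet cells, Hnf4g -0.11 in endocrine cells and Hnf4a -0.00065 in goblet against enterocyte levels. With at most 25% mitochondrial UMIs Hnf4a was 0.0060 in endocrine cells. In tip-marker cells Gata4 was -0.014 and Mep1a -0.069, and in the other enterocytes Gata4 was -0.023.

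With each library left out in turn, ranges that crossed 0 were in enterocytes -0.050 to 0.037 for Cdx1 and -0.020 to 0.050 for Gata4, in goblet cells -0.19 to 0.12 for Gata5, -0.28 to 0.0029 for Onecut2 and -0.0037 to 0.077 for Gata6, in endocrine cells -0.040 to 0.13 for Cdx1, -0.043 to 0.22 for Gata5 and -0.013 to 0.21 for Hnf4g, in goblet against enterocyte levels -0.043 to 0.066 for Onecut2, in endocrine against enterocyte levels -0.084 to 0.22 for Pdx1, and for the Pdx1 interactions -0.45 to 0.20 (goblet) and -0.34 to 0.76 (endocrine).

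Counts of genes called moved by over 1.5 times in few fits. In endocrine cells 97 became 320 without a filter, 29 under the stricter gate, 36 without the top 5% of barcodes, 46 with at most 25% mitochondrial UMIs and between 30 (without littermate replicate 1) and 129 with a library left out. The goblet interaction count of 520 became 798 without a filter, 1190 and 321 under the stricter and looser gates, 918 without the top 5% of barcodes and between 296 (without IE-HuR-/- replicate 3) and 770 with a library left out. The endocrine interaction count of 179 became 270 without scaling and between 109 (without IE-HuR-/- replicate 2) and 245 with a library left out. The tip interaction count of 2074 became 1025 by DESeq2 and 1355 under a stricter tip gate, and the enterocyte count of 7510 became 4905 in tip-marker cells, where fewer genes were tested.

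Replicate numbers were not used as pairs in the main fits. Same-numbered deviations correlated between -0.22 and -0.05 in enterocytes, between -0.08 and 0.01 in goblet cells and between -0.04 and 0.06 in endocrine cells. Those of differently numbered libraries correlated between -0.08 and 0.13, between -0.07 and 0.07 and between -0.12 and 0.08, in the same order. With 3 libraries a group these values cannot show whether same-numbered libraries were paired. With the replicate block 7306 genes were called in enterocytes, 2361 in goblet cells, 92 in endocrine cells and 6844 over all epithelial cells, and the call of no member changed, while Cybrd1 (adjusted p = 0.126) and Mep1a (adjusted p = 0.0659) were no longer called in enterocytes. Of the 3 classes compared between labels the endocrine one held the fewest UMIs, with between 718961 and 1362003 UMIs per library against between 41562479 and 66931825 in enterocytes.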

Other observations

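Plut, the non-coding gene antisense to Pdx1, had levels in enterocytes that differed by -0.23 on the log2 scale (SE 0.06, edgeR adjusted p = 0.0030) between labels, against -1.41 for Pdx1 in the same sums. In enterocytes with tip markers Plut differed by -0.57 (adjusted p = 0.037) and in the other enterocytes by -0.11 (adjusted p = 0.18), and in goblet cells by -0.79 (adjusted p = 0.078). The sizes of the Plut and Pdx1 differences were not tested against each other.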
